A study of Homo sapiens with 4 samples.

Results

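Replication of human DNA starts at many sites called origins, and each start releases short, RNA-primed nascent strands that can be isolated by size and by their resistance to λ exonuclease. Regions where such strands pile up over genomic DNA (nascent-strand sequencing, NS-Seq) therefore mark origins that were used in the cell population. RepID, also called PHIP, is a chromatin protein that binds a subgroup of origins. The strong origins described here were found in cells with unaltered RepID (WT), lay at a distance from every RepID-bound region and had no counterpart in the list of origins from RepID knockout (KO) cells.

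Of the 78859 WT origins listed, 77492 lay on chromosomes 1 to 22. A score of 295 or more was reached by 19519 of them (24.8% of the list). Of these, 18086 were narrower than 20 kb, 9119 of those lay more than 10 kb from every RepID-bound region, and 8775 had a RepID-bound region within 300 kb. These 8775 are called strong RepID-free origins. No KO region overlapped 2340 of them, and these 2340 absent origins (2.97% of the WT list, named members in the plots) are the subject of the report. At least 1 base of a KO region overlapped the other 6435, which are called kept. The absent origins were thus selected on their WT score, their width, their distance to RepID and the lack of a KO overlap, so that none of these 4 properties is a finding, and values of them are given as description only.

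The WT library was made from HCT116, an established line of colorectal carcinoma cells whose RepID was left unaltered. The KO library came from HCT116 cells in which RepID had been disrupted with CRISPR-Cas9 and a guide RNA, and genomic DNA of HCT116 cells was the control used in calling both lists. The knockout cells were selected with puromycin, and the methods call them stable clones without saying how many were sequenced. RepID binding was measured by chromatin immunoprecipitation (ChIP-Seq) with an antibody against FLAG in U2OS cells, an osteosarcoma line, that expressed FLAG-tagged RepID, so an origin called RepID-free here had no binding site nearby in another cell line. All cultures were unsynchronized. There was 1 library per condition, so no test between WT and KO could be made, and all intervals below are 95% intervals for counting error alone. Neighbouring origins are not independent, so these intervals are too narrow. The lists carry no read totals, and the depth of each library is unknown. The deposited KO list, with 159667 regions, is longer than the WT list, with 78859, and its length is not that of the KO list counted in the paper, where the KO list is the shorter one. The threshold behind the deposited KO regions is unknown, and absent means only that no region of this list overlapped: with the list limited to its 78859 highest scores, the number of absent origins given below would be 3900 in place of 2340. Positions are on hg19 and counted from 1.

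At an overlap of 1 base, absent origins were fewer than kept ones. The share depended on that criterion and on the KO list: it was 56.3% when an overlap had to reach 50% of the origin, and 44.4% against only as many of the strongest KO regions as there are WT regions. The 2340 absent origins were 26.7% of the strong RepID-free origins (exact binomial interval 25.7 to 27.6%, and 27.2% without chromosome 10), whereas 38.4% of all autosomal WT origins had no KO region, as did 29.8% of autosomal WT origins with the same score and width at any distance from RepID. Among origins under the score minimum the share was 41.7%. With score and width as required here, 2208 of 6417 origins within 2 kb of RepID had no KO region (34.4%, 33.2 to 35.6%). At 2 to 10 kb from RepID the count was 756 of 2550 (29.6%, 27.9 to 31.5%), and beyond 300 kb it was 94 of 344 (27.3%, 22.7 to 32.4%). The share was thus higher next to RepID than beyond 10 kb, and the interval of the small class beyond 300 kb overlapped that of the absent origins.

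Among strong RepID-free origins at 10 to 20 kb from RepID, 643 of 2185 were absent (29.4%), and the share was 27.0% at 20 to 50 kb, 25.8% at 50 to 100 kb, 22.8% at 100 to 200 kb and 22.1% at 200 to 300 kb (68 of 308). The difference between the nearest and the farthest of these classes was 7.35 percentage points, and 6.54 without chromosome 10, given as a description. The median distance to RepID was 34.3 kb for absent origins (quartiles 18.9 and 64.9 kb) and 38.1 kb for kept ones. The share of bases in KO regions over the classes rose along the same axis, from 38.8% of the origins' own bases at 10 to 20 kb to 49.7% at 200 to 300 kb.

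Absent origins were narrow relative to kept ones. Their widths ran from 600 to 19600 bp, with a median of 5600 bp (interval 5400 to 5600) and quartiles at 3950 and 7600 bp. Kept origins had a median width of 7000 bp (6800 to 7000), with quartiles at 5200 and 9600 bp. Under 5 kb lay 933 absent origins (39.9%) and 1388 kept ones (21.6%), and at 10 kb or more lay 289 absent origins (12.4%) and 1526 kept ones (23.7%). In all, the absent origins covered 14.6 Mb, which is 4.78% of the 304.5 Mb in the WT list.

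The share of absent origins fell with every step in width. It was 56.1% of 82 origins narrower than 2 kb (44.7 to 67.0%), 45.8% of 1178 at 2 to 4 kb, 30.7% of 2325 at 4 to 6 kb and 23.6% of 2094 at 6 to 8 kb. For the wider ones it was 20.1% of 1281 at 8 to 10 kb, 17.4% of 1341 at 10 to 15 kb and 11.6% of 474 at 15 to 20 kb (8.86 to 14.8%). Counted over absent and kept origins together, KO regions covered 36.1% of the bases at 2 to 4 kb, 45.3% at 6 to 8 kb and 39.1% at 15 to 20 kb. The share of bases covered did not follow width as the share of absent origins did. Width is tied to the rule, since any shared base made an origin kept and a wider origin had more room for an overlap. How much of the fall with width this gives was not tested.

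With rising WT score the share of absent origins fell slightly, as it did with width. From the lowest to the highest quartile of score it was 28.9, 27.9, 26.0 and 23.9%. The median score of the absent origins was 519.5 (interval 506 to 535, quartiles 376 and 856.5, highest 6007), against 556 for kept origins (543 to 566). Width and score rose together, with a Spearman coefficient of 0.653 across the absent origins and 0.696 across the kept ones. Score divided by width had a median of 106.6 per kb in absent origins (103.9 to 108.9) and 87.4 per kb in kept ones (86.1 to 88.5). Over all autosomal WT origins it was 58.0 per kb. Absent origins were thus narrower and carried more score per base than kept origins. Score, width and KO overlap were all used in the selection, so this is a description and no finding. The score minimum also enters the comparison with all autosomal WT origins.

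Within classes of like width the order by score was the reverse. Each width class was divided at its own median score, and the upper part had the higher share of absent origins in 6 of the 7 classes. At 6 to 8 kb, 316 of 1047 origins with the higher scores were absent (30.2%, 27.4 to 33.1%), against 179 of 1047 with the lower scores (17.1%, 14.9 to 19.5%). At 15 to 20 kb the shares were 15.5% (11.2 to 20.8%) and 7.63% (4.58 to 11.8%). At 2 to 4 kb they were 47.7% (43.6 to 51.8%) and 43.8% (39.8 to 47.9%). In both of these classes the intervals overlapped. Under 2 kb the order was the other way, with 48.8% against 63.4%, but only 41 origins stood on each side and their intervals overlapped. Over all classes 1385 of 4395 origins with the higher scores were absent (31.5%) and 955 of 4380 with the lower scores (21.8%), a difference of 9.71 percentage points at median widths of 6600 and 6400 bp, and of 9.67 without chromosome 10. Since score, width and KO overlap were all used in the selection, these values are a description and no finding.

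**Figure D1:**
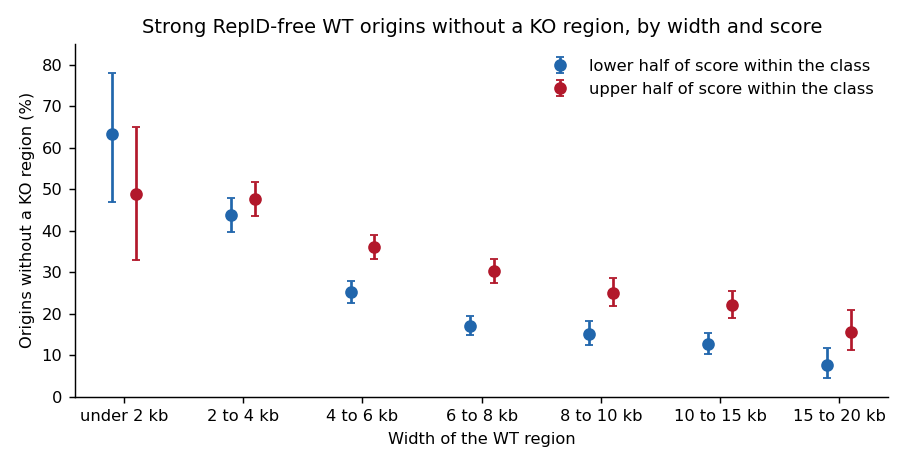
Percentage of strong RepID-free WT origins with no overlapping KO region (vertical axis, with exact binomial 95% intervals) by width of the WT region (horizontal axis, kb), for the lower and upper part of the WT scores within each width class. Shares fell from left to right in both parts, and the upper part stood higher in every class but the one under 2 kb, as at 6 to 8 kb with 30.2% against 17.1%.

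The absent origins with the highest WT scores were among the strongest origins of the whole list. The first ran on chromosome 9 from 139508201 to 139526000 and had a score of 6007 over 17800 bp, with the nearest KO region, of score 138, only 200 bp away. The next was on chromosome 20 from 60895601 to 60914200, with a score of 5458 and a KO region of score 126 at 4800 bp. On chromosome 2 an origin from 242001801 to 242014600 had a score of 5331 over 12800 bp, with no KO region for 13600 bp on one side and 18600 bp on the other. These 3 lay at or above percentile 99.1 of the WT scores.

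The rest of the 10 highest included the one of them that stood farthest from any KO region. It lay on chromosome 16 from 1475801 to 1489800, with a score of 5054, and the gaps to KO regions were 62800 and 113400 bp. On chromosome 11, from 1937201 to 1952000 with a score of 5007, the gaps were 18000 and 23000 bp. Chromosome 19 had 2 of the others, from 56195201 to 56210800 (score 5233) and from 2421201 to 2438800 (score 4507). The remaining 3 were at 3646401 to 3663400 of chromosome 20 (score 4605), at 45119801 to 45136600 of chromosome 22 (score 4492) and at 2712401 to 2732000 of chromosome 1 (score 4412). Their gaps to the nearest KO region were between 1200 and 12200 bp.

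The origin on chromosome 1 from 2712401 to 2732000 was also the widest of the absent origins, at 19600 bp, and lay 108.8 kb from RepID. Next came an origin of 19200 bp at 124932801 to 124952000 of chromosome 12, followed by 3 of 19000 bp, at 233296401 to 233315400 of chromosome 2, 2585801 to 2604800 of chromosome 11 and 33623401 to 33642400 of chromosome 6. Each of these 4 had a KO region within 7000 bp. At the other end, the narrowest, picked after its value was seen, was an origin of 600 bp on chromosome 13 from 21951401 to 21952000 with a score of 373, which gives 621.7 per kb. Its nearest KO and WT regions were both more than 10 kb away, at 11000 and 11200 bp.

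The limits of the rule cut through continuous values. At the score minimum of 295 stood 12 absent origins, such as the one on chromosome 1 from 26946201 to 26948600, and 10 origins that met the rest of the rule had a score of 294, such as the one on chromosome 1 from 22643801 to 22646000. Against the widest absent origin at 19600 bp, the first one out by width was 20000 bp wide, on chromosome 15 from 85795201 to 85815200. By distance to RepID, the nearest included origin was at 10001 bp (chromosome 6, 33574401 to 33579200) and the next one out at 9979 bp (chromosome 18, 34865001 to 34872000). The farthest included was at 299771 bp (chromosome 21, 45926201 to 45937600) and the next one out at 303811 bp (chromosome 11, 129561201 to 129567800). By KO overlap, the origin on chromosome 1 from 16315401 to 16322200 touched a KO region without sharing a base and was included, whereas the one on chromosome 1 from 4034201 to 4039800 shared 200 bp and was kept. Such an overlap of 200 bp, 1 step of the grid on which all nascent-strand regions begin and end, was all that 61 kept origins had.

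Absent origins were found on all 22 autosomes, in unequal numbers and shares. Chromosome 19 held the most and had the highest share, with 273 of its 591 strong RepID-free origins absent (46.2%, 42.1 to 50.3%). By share, chromosome 22 followed with 140 of 350 (40.0%, 34.8 to 45.3%), then chromosome 7 with 182 of 475 (38.3%) and chromosome 21 with 61 of 169 (36.1%). These 4 chromosomes held 28.0% of the absent origins but 18.1% of the strong RepID-free origins, and 41.4% of their strong RepID-free origins were absent against 23.4% on the other autosomes. The lowest shares were 18.8% on chromosome 10 (106 of 564), 19.2% on chromosome 17 (111 of 577), 19.6% on chromosome 8 (72 of 367) and 20% on chromosome 1 (184 of 919). The order was much the same over all WT origins of any score and distance to RepID, of which 57.1% had no KO region on chromosome 19, 48.7% on chromosome 7, 45.4% on chromosome 22, 45.3% on chromosome 21, 27.9% on chromosome 17 and 24.2% on chromosome 8, so it was not particular to the strong RepID-free origins. Per Mb between the first and the last region listed on the chromosome, absent origins numbered 4.62 on chromosome 19, 3.98 on chromosome 22 and 0.325 on chromosome 4.

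The widths of the origins gave a much flatter order of the chromosomes. When each origin was given the share of its width class, the chromosomes came out between 25.5 and 28.7%, while the measured shares spread from 18.8 to 46.2%. How much of a chromosome the KO list covered went with the share only in part. Cover was taken over the span from the first to the last listed region, which leaves out any unlisted stretch at the ends. KO regions covered 15.6% of this span on chromosome 19, 22.3% on chromosome 22, 16.5% on chromosome 7 and 15.7% on chromosome 21. Among the chromosomes of low share they covered 25% on chromosome 10, 33.5% on chromosome 17, 29.8% on chromosome 8 and 20.3% on chromosome 1. The lowest cover of the listed span was on chromosomes 4 and 13, at 14.1 and 14.9%, with absent shares of 32.5 and 26.7%. On chromosome 19 the KO list was shorter than the WT list (2972 against 4057 regions), as on chromosome 22 (2292 against 2403), while on the other 20 autosomes it was longer. Across the 22 autosomes, which share their libraries, the Spearman coefficient between absent share and KO cover was -0.656, given as a description. The part of the KO cover in the order of the chromosomes was not tested.

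**Figure D2:**
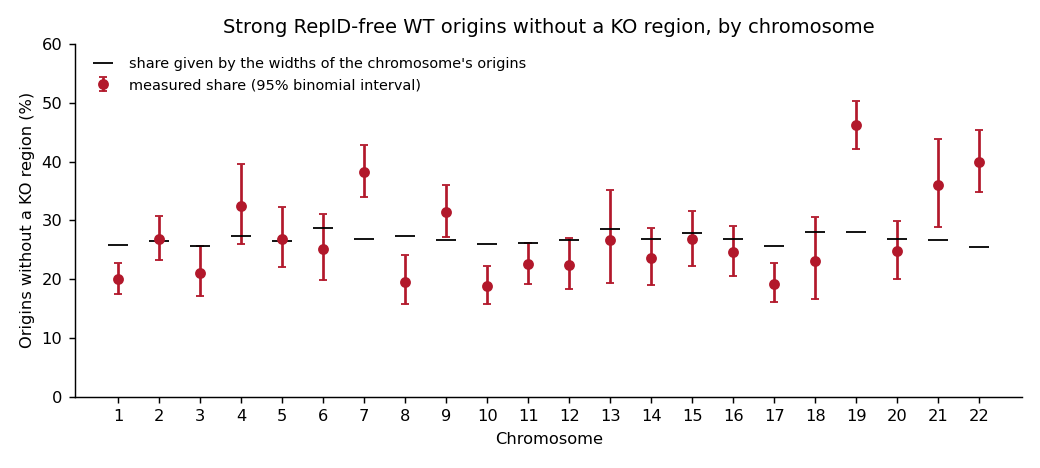
Percentage of strong RepID-free WT origins with no overlapping KO region on each autosome (points, with exact binomial 95% intervals), beside the percentage that the widths of the chromosome's own origins would give (horizontal bars). Chromosomes 19, 22, 7 and 21 stood highest, at 46.2, 40.0, 38.3 and 36.1%, while the bars stayed between 25.5 and 28.7%.

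Absent origins lay closer to the chromosome ends than kept ones at the median, with widely overlapping ranges. The end was taken as the first or last region listed on the chromosome, so it is not the true end where an unlisted stretch lies beyond it. The median distance to the end was 10.9 Mb for absent origins (quartiles 3.18 and 31.8 Mb) and 17.2 Mb for kept ones (5.94 and 37.4 Mb). Within 2 Mb of an end, 396 of 1018 strong RepID-free origins were absent (38.9%, 35.9 to 42.0%), and the share was 33.4% at 2 to 5 Mb, 25% at 5 to 10 Mb and 24.7% at 10 to 20 Mb. At 20 to 50 Mb it was 545 of 2569 (21.2%, 19.6 to 22.8%), a difference of 17.7 percentage points from the outermost class (14.3 to 21.1), at median widths of 6800 and 6400 bp. It did not go on falling, since at 50 Mb or more it was 312 of 1233 (25.3%, 22.9 to 27.8%). All autosomal WT origins showed a like order of these classes, with 45.7% without a KO region within 2 Mb, 35.9% at 20 to 50 Mb and 39.3% at 50 Mb or more, so it was not particular to the strong RepID-free origins. Without chromosome 10 the difference between the outermost class and that at 20 to 50 Mb was 14.5 points, and without chromosomes 19, 22, 7 and 21 it was 17.7 points. KO regions covered 30.4% of the bases of the outermost origins and 47.7% of those at 20 to 50 Mb.

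In windows of 5 Mb with at least 20 strong RepID-free origins, of which there were 163, the median share of absent origins was 22.9%, with quartiles at 13.6 and 33.9%. The highest window was chromosome 10 from 130000001 to 135000000, with 46 of 61 absent (75.4%). Next came chromosome 15 from 30000001 to 35000000 with 19 of 28 (67.9%), chromosome 7 from 70000001 to 75000000 with 20 of 34 (58.8%) and the first 5 Mb of chromosome 19 with 45 of 77 (58.4%). In the last of these, WT regions covered 68.9% of the bases and KO regions 8.02%. At the other extreme, 0 of 35 were absent on chromosome 17 at 60000001 to 65000000, and on chromosome 10 there were 0 of 31 at 115000001 to 120000000 and 0 of 21 at 110000001 to 115000000, with exact upper limits of 10.0, 11.2 and 16.1%. Chromosome 10 thus held the highest window and 2 of the 3 windows at 0. KO regions covered between 46.9 and 51.6% of the bases in these 3 windows, against 19.9% over all autosomes. The part of the KO cover in these shares was not tested, and copy number there was not measured.

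At the end of chromosome 10 the KO list was almost empty. The stretch described here was bounded with the KO list itself, at the first KO-free stretch of over 500 kb on that chromosome that held an absent origin, so its share is a description. From 131367201 to the last listed position at 135524400, 56 of 58 strong RepID-free origins were absent (96.6%, 88.1 to 99.6%), while before it 50 of 506 were (9.88%, 7.42 to 12.8%). The stretch held 321 WT regions that covered 33.1% of it, and 8 KO regions that covered 1.35%. Of its 228 WT origins under the score minimum, 226 also had no KO region (99.1%). By Mb, KO regions covered 61.1% from 129000001, 65.5% from 130000001, 23.8% from 131000001 and 0.02% from 132000001, whereas WT regions covered 30.5, 34.9, 23.8 and 19.5%. Copy number was not measured, so less initiation in this stretch and less of its DNA in the KO cells cannot be told apart, and absent there does not show a lack of initiation. Values without chromosome 10 are given beside several results below.

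At a distance of 50 kb, absent origins were about as often alone as near another one. Another absent origin was found within 10 kb for 29.6% of them, within 50 kb for 1206 (51.5%, 49.5 to 53.6%) and within 100 kb for 61.7%. Without chromosome 10 the share at 50 kb was 51.1%. The median gap between an absent origin and the nearest other one was 46.9 kb. Kept origins, being more numerous, had a median gap of 16.4 kb to each other, and 70.0% of them had another kept origin within 50 kb.

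Whether absent origins were next to each other more often than their number gives was read from pairs of neighbouring strong RepID-free origins. Of all strong RepID-free origins, 26.7% were absent. For pairs less than 5 kb apart, the neighbour of an absent origin was itself absent in 46.8% of cases, and the neighbour of a kept origin in 23%. At 5 to 10 kb the shares were 46.2 and 20.6%, at 20 to 50 kb 37.3 and 21.8%, and at 100 kb or more 34.8 and 23%. The nearest pairs can be reached by 1 and the same KO region, which happened for 275 of 1026 kept pairs under 5 kb apart (26.8%), for 27 of 507 at 5 to 10 kb (5.33%) and for 1 of 2944 at 20 kb or more. Without chromosome 10 the shares were 45.8 and 23.9% under 5 kb and 34.0 and 24.0% at 100 kb or more. Neighbours of absent origins were thus more often absent than neighbours of kept ones at each of these distances. Each pair was counted from both sides. The share of absent origins also differed between chromosomes, from 18.8% on chromosome 10 to 46.2% on chromosome 19. The part of this in the values for pairs was not tested.

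Joined at gaps of at most 50 kb, the absent origins made 1592 groups. Of these, 1134 held a single origin (48.5% of the absent origins), 307 held 2 and 151 held 3 or more. The 29 groups of 5 or more held 194 absent origins (8.29%). The largest ran on chromosome 10 from 134437801 to 134742000, with 14 absent origins over 304.2 kb, and none of the 35 WT regions in it had a KO region. A second group on the same chromosome, from 134852001 to 135059600, held 13 absent origins, 1 kept one and 1 KO region.

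Of the first 5 groups, the other 3 held more KO regions. On chromosome 22, from 21695401 to 21906800, there were 10 absent origins, 1 kept one and 2 KO regions over 211.4 kb. On chromosome 21, from 46868201 to 47064600, 9 absent and 4 kept strong RepID-free origins stood together with 7 KO regions. On chromosome 9, from 138389601 to 138511000, 8 absent origins with scores that summed to 13640 stood with 1 kept one and 4 KO regions over 121.4 kb. That group was 1 of 3 with 8 absent origins and was named for its summed score. The others with 8 were on chromosome 20 from 60424401 to 60585800, with 9 KO regions, and on chromosome 22 from 20361601 to 20504000, with 1.

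In the list as deposited, most absent origins had a KO region close by, as had the other 27412 autosomal WT origins without one. The median gap to the nearest one was 5200 bp (interval 5000 to 5600), with quartiles at 2200 and 10800 bp. It was 10200 bp with the KO list limited to the length of the WT list, and 10000 bp when measured between centres. Within 2 kb there was a KO region for 581 absent origins (24.8%), within 5 kb for 1159 (49.5%), within 10 kb for 1694 (72.4%) and within 50 kb for 2258 (96.5%). For the other WT origins without a KO region these shares were slightly higher, at 29.4, 55.5, 76.6 and 97.9%, with a median gap of 4400 bp. The gap was smaller than the origin's own width in 1219 cases (52.1%), and 41 absent origins touched a KO region without overlap (1.75%). KO regions stood within 10 kb on both sides of 648 (27.7%). The nearer one was on the side of the higher coordinates in 1148 cases (49.1%, 47.0 to 51.1%), so neither side was preferred beyond counting error.

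The KO regions nearest to absent origins were ordinary for their list in width and score. Their median width was 3000 bp and their median score 129 (quartiles 97.8 and 178), against 3000 bp and 130 over the whole KO list. KO regions that overlapped kept origins were wider and stronger, with medians of 3800 bp and 163, at percentile 67.0 of the KO scores. Of the KO regions nearest to absent origins, 1717 (73.4%) overlapped some other WT origin, against 52.8% of those nearest to the other autosomal WT origins without a KO region and 31.0% of all autosomal KO regions. WT regions were dense around absent origins, as given below, and the part of this density in the 73.4% was not tested. Kept origins had a median of 58.3% of their bases in KO regions (quartiles 35.0 and 82.9%). KO regions covered at least 50% of the bases in 3833 of them (59.6%) and all bases in 779. In 614 (9.54%) they covered less than 20%.

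**Figure D3:**
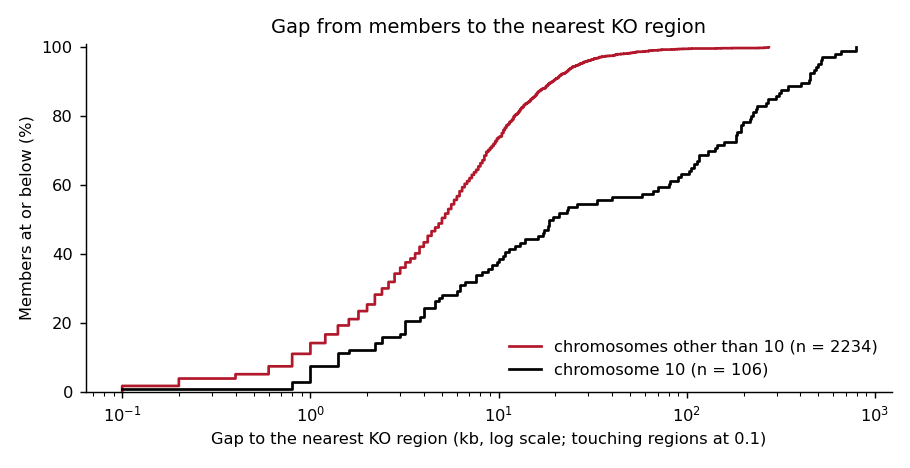
Cumulative percentage of absent origins (vertical axis) by gap to the nearest KO region (horizontal axis, kb on a log scale, touching regions drawn at 0.1), for chromosome 10 and the other autosomes. The 2234 absent origins outside chromosome 10 had a median gap of 5000 bp, and the 106 on chromosome 10 one of 19000 bp with a tail to 789600 bp.

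The median gap ran from 3200 bp on chromosome 3 to 6600 bp on chromosomes 19 and 22, and stood at 19000 bp on chromosome 10. The 5 absent origins farthest from a KO region all lay on chromosome 10. They ran from 133638201 to 133645000 (gap 789600 bp, score 323), from 133772201 to 133776000 (658600 bp, score 306), from 132905801 to 132911800 (611000 bp, score 339), from 132817801 to 132824000 (523000 bp, score 692) and from 133912601 to 133920200 (514400 bp, score 800). Outside chromosome 10, and picked after its value was seen, the farthest was on chromosome 16 from 345801 to 348400, with a gap of 272600 bp and a score of 429.

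Seen from the KO list, absent origins fell into 1868 stretches between consecutive KO regions. Of these, 1554 held a single absent origin (66.4% of the absent origins), 314 held 2 or more and 14 held 5 or more. The median stretch was 26.1 kb long (quartiles 16.8 and 41.6 kb), and 65 stretches longer than 100 kb held 184 absent origins. The longest was on chromosome 10 from 132294801 to 134434600, 2139.8 kb without a KO region that held 17 absent origins and 171 WT regions, 136 of them under the score minimum, as well as 24 RepID-bound regions. Next in length were stretches on chromosome 9 (1143.6 kb) and chromosome 2 (1110.4 kb), each with 1 absent origin. They held 12 and 3 WT regions, which covered 2.41 and 0.738% of their bases. How much of these stretches reads can map to was not checked. Among shorter stretches, 551.2 kb near the start of chromosome 16, from 69801 to 621000, held 7 absent origins, 42 WT regions and 17 RepID-bound regions. On chromosome 19 a stretch of 244.4 kb from 3882401 to 4126800, with 69.5% of its bases in WT regions, held 5 absent origins. All WT origins within such a stretch lack a KO region by its definition.

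The weaker WT origins, those under the score minimum, were not themselves chosen by the rule. The measure is not independent of it, since the KO regions that made a strong origin kept are counted again where they reach a weaker one. Each was assigned to the nearest strong RepID-free origin within 50 kb. Around absent origins 3167 of 5473 weaker origins had no KO region (57.9%, 56.5 to 59.2%), and around kept origins 7340 of 18680 (39.3%, 38.6 to 40.0%), beside 41.7% of all autosomal origins under the score minimum. The difference was 18.6 percentage points (Newcombe interval 17.1 to 20.1) and had the same sign on all 22 autosomes, from 4.05 points on chromosome 6 to 53.5 on chromosome 10, although on 5 of them (chromosomes 3, 4, 6, 14 and 21) its interval included 0. Weaker origins of both sets were alike in size, at a median of 2000 bp, and in median score, at 100. Without chromosome 10 the difference was 16.4 points, and without chromosomes 19, 22, 7 and 21 it was 17.9.

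A KO region over a kept origin can reach into its neighbour, so the same count was made with all 8482 KO regions that overlapped a strong RepID-free origin left out, an alternative added after the data were seen. The difference was then 11.8 points (10.3 to 13.3). For weaker origins less than 2 kb away it went from 33.7 points (71.3 against 37.6%) to 1.78 (72.7 against 70.9%, interval of the difference -1.96 to 5.33), an interval that includes 0. At 20 to 50 kb it was 14.6 points (53.6 against 39.0%) before and 14.5 after. Of all KO regions, 99% were at most 12800 bp wide, so leaving some out could change little there. Leaving regions out can also only raise a share, so the value at 20 to 50 kb decides nothing about spanning KO regions. At 10 to 50 kb with those KO regions left out, the difference was positive on 21 of 22 autosomes, chromosome 4 being the exception at -4.46 points. How far single KO regions that span neighbours enter these values was not tested beyond this count.

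**Figure D4:**
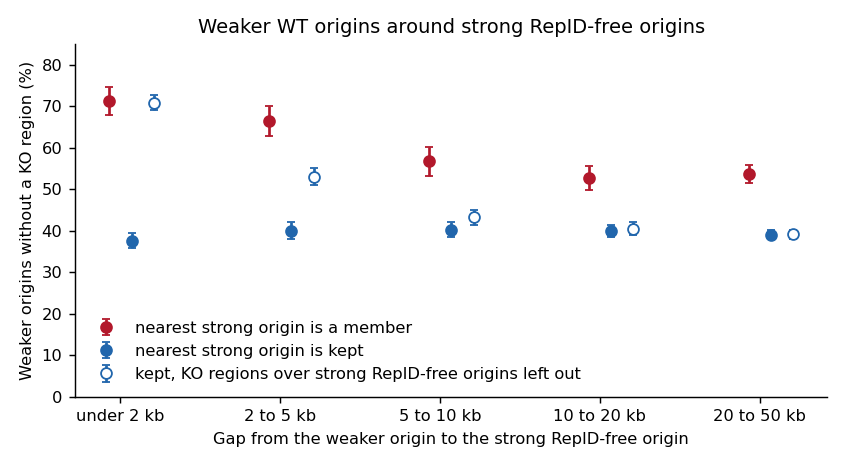
Percentage of weaker WT origins (score under 295) with no overlapping KO region (vertical axis, exact binomial 95% intervals) by gap to the nearest strong RepID-free origin (horizontal axis, kb), where that origin was absent (members) or kept. Open points leave out the KO regions that overlap strong RepID-free origins. For kept origins these points stand at 70.9% under 2 kb and at 39.1% at 20 to 50 kb. With the same KO regions left out, the values around absent origins were 72.7 and 53.6%.

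RepID-overlapped origins near absent origins showed the same direction. Within 50 kb of an absent origin 660 of 1431 WT origins that overlapped a RepID-bound region had no KO region (46.1%, 43.5 to 48.7%), and within 50 kb of a kept origin 1210 of 3669 (33.0%, 31.5 to 34.5%). The difference was 13.1 points (10.1 to 16.1), and 11.9 points without chromosome 10. KO regions that made a strong origin kept are counted again here too, and leaving them out was not run for this set. The share over all RepID-overlapped origins is not given here. In a set limited by the rule's score and width, 34.4% of origins within 2 kb of RepID had no KO region. The RepID-overlapped origins near absent ones were the wider and the stronger, with medians of 6200 bp and 686 against 5600 bp and 573.

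The surroundings of absent origins differed in the same way over long distances, as read from bins in which flanks of neighbouring origins can overlap. Absent and kept origins were sorted on the same KO list, so these values are a description. At 10 to 20 kb from the edge, KO regions covered 20.3% of the bases around absent origins and 33.6% around kept ones. At 50 to 100 kb the values were 20.8 and 30.7%, and at 200 to 500 kb 20.9 and 27.8%. Absent origins had the lower cover on all 22 autosomes in each of these 3 bins, and on 21 of 22 in the bins at 5 to 10 and at 100 to 200 kb. Over all autosomes 19.9% of the bases lay in KO regions, so around absent origins the KO cover was near this value in each bin beyond 5 kb, and around kept origins it was above it. Without chromosome 10 the cover was 20.6 and 32.2% at 10 to 20 kb, 21.1 and 29.6% at 50 to 100 kb and 21.1 and 26.8% at 200 to 500 kb.

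Farther than 5 kb out, WT regions were slightly denser around absent than around kept origins. They covered 46.3% of the bases at 10 to 20 kb from absent origins and 44.0% from kept ones, and 35.0 and 30.2% at 200 to 500 kb, where the autosomes as a whole had 10.8%. RepID-bound regions covered 1.47 and 1.26% at 10 to 20 kb, against 0.596% of the autosomes. Close to the origins the order was the other way, with WT cover of 14.8 against 15.9% within 2 kb and of 41.2 against 41.7% at 2 to 5 kb. The nearest WT region was at a median of 1600 bp from absent origins and 1400 bp from kept ones, and the share of absent origins was 24.7% where it lay under 1 kb away and 31.9% where it lay at 10 kb or more. The most isolated origins were also the narrowest, with a median width of 4800 against 7000 bp.

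**Figure D5:**
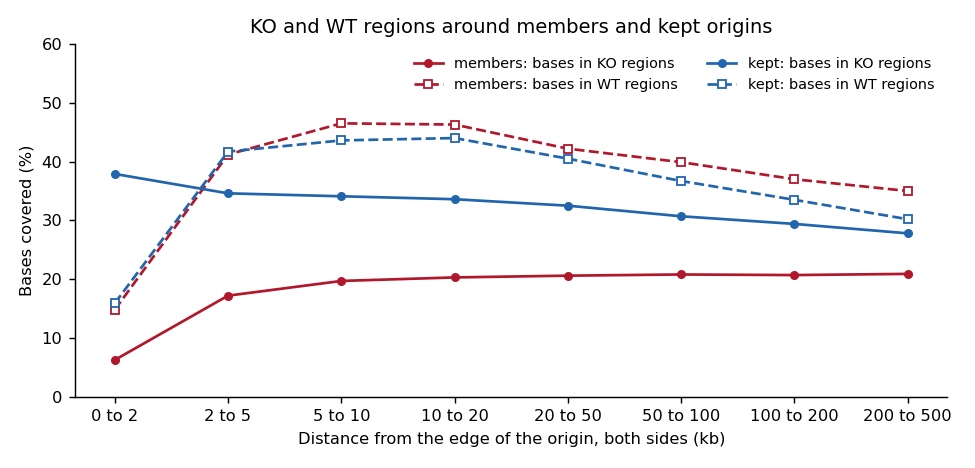
Percentage of bases in KO regions (solid lines) and in WT regions (dashed lines) by distance from the edge of the origin, both sides (kb), around absent origins (members) and kept origins. KO cover around absent origins stayed between 19.7 and 20.9% from 5 to 500 kb, and around kept origins between 34.1 and 27.8%. Both groups were sorted on this KO list. Within 2 kb, at 6.26 and 37.9%, the lack of an overlap lowers the absent origins' value and the overlap can raise that of kept origins.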

How the data were processed

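The authors deposited 1 list of enriched regions for each of the WT nascent-strand, KO nascent-strand and RepID libraries, in which a region is given by its coordinates and 1 score. Per the labels, MACS and SICER were used and positions are on hg19. The title of the RepID library names MACS, and the labels give no role for SICER. The paper's methods name MACS for RepID and, for nascent strands of U2OS cells, SICER with a window of 200 bp. The caller of the HCT116 nascent-strand lists and the meaning of their score are not given in the sources used here, so scores were compared within a list only. All their boundaries fell on a grid of 200 bp. The genomic control was not analysed here. Genes and sequences at the origins are not reported, since no genome on hg19 was used.

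Overlaps, gaps and covered bases were computed in Python 3.11.15 (SciPy 1.17.1, pandas 2.3.3, numpy 2.4.6) and tested on simulated data against bedtools 2.31.1. A gap of 0 means touching without a shared base. Shares have exact binomial (Clopper-Pearson) intervals, differences of shares Newcombe intervals and medians order-statistic intervals, all at 95%. Depth is unknown, so no floor from read counts could be given. No test between conditions was made.

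The members, classes and lists were chosen with earlier results of these data known. Origins named are the 10 with the highest WT score, the 5 widest, the 5 farthest from a KO region, the 5 groups with the most members and those next to each limit of the rule. Alternatives covered the score minimum, the width limit, the distances to RepID and KO, the overlap that counts as kept, a KO list cut to the length of the WT list, merged WT regions and the neighbour distance. Leaving out chromosome 10, the 4 chromosomes of highest absent share or KO regions over strong RepID-free origins was added after the data were seen.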

Additional observations from a re-analysis of the deposited data

How the results depend on the processing

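The 52 alternatives covered counts, shares, medians and 4 differences. None of those 4 changed sign, but absent origins went from fewer to more than kept ones when 50% of an origin had to be covered. The number of absent origins and their share depended most on what counted as kept. With a WT score minimum of 200 there were 3794 absent origins (28.8%) of median width 4400 bp, and with a minimum of 400 the median width was 6400 bp. When a KO region within 2 kb counted as kept, the share was 20% and 50.8% of the weaker origins around absent ones had no KO region. When an overlap had to reach 50% of the origin, 4942 origins (56.3%) were absent. With the KO list limited to its 78859 highest scores, 3900 origins (44.4%) of median width 6000 bp were absent, 61.8% of them had another within 50 kb, the median gap to a KO region was 10200 bp and 71.6% of the weaker origins around them were absent. The share was 29.5% for widths under 10 kb, 25.4% after WT regions under 1 kb apart were merged and 23.4% without chromosomes 19, 22, 7 and 21, where 54.7% of weaker origins near absent ones had no KO region. Between centres the median distance to a KO region was 10000 bp. Another absent origin lay within 20 kb of 37.0% and within 100 kb of 61.7%. For weaker origins within 20 kb the value was 60.4%. The difference between weaker origins around absent and around kept ones ran from 11.8 to 25.4 percentage points over its alternatives. No paired analysis was possible because there is 1 library per condition. Unknown depth limits the comparison of the lists, and a region missing from the KO list can still hold signal under its threshold.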

Other observations

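Origins of 20 kb or more, which the width limit kept out, were rarely absent. Of 385 that otherwise met the rule, 37 had no KO region (9.61%, exact interval 6.86 to 13.0%). Their widths ran from 20000 to 47600 bp with a median of 23200 bp, and their median score was 3884. The widest lay on chromosome 4 from 1735401 to 1783000 (47600 bp, score 14999), where a KO region touched the edge. The next lay on chromosome 11 from 1239401 to 1286400 (47000 bp, score 18281), with the nearest KO region at 10200 bp, and on chromosome 19 from 45631601 to 45677800 (46200 bp, score 9914), with one at 3000 bp. These 3 were chosen after their values were seen.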
